A study of Homo sapiens with 6 samples.

Results

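Genes that fold proteins in the endoplasmic reticulum (ER), and genes that send misfolded proteins out of it for degradation, were followed in cultured cells given the compound coded AAPK and in cells given its vehicle, DMSO. The list held 35 genes, chosen by symbol: 15 chaperones and disulfide isomerases, 11 degradation factors, 5 stress sensors and transcription factors, and 4 genes of the translocon and of acetyl-CoA import. A gene was taken as measured where a probe set of the array named that symbol and no other, which held for 34 of the 35, out of 18132 genes in all. SEC61G, a translocon subunit, was not analysed here. Where several probe sets named a gene, the brightest over all 6 arrays stood for it and the others are given beside it.

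There were 3 arrays from cells given AAPK and 3 from cells given DMSO, all labelled as HCT-116, an established human colorectal carcinoma line. The series title speaks of a compound that inhibits both Aurora A and PLK-1, kinases of mitosis, and the labels describe all 6 samples as high in both kinases. The treatment field, which is the same for all 6 samples, reads 10 µM and 48 h, and 10 µM was read as the AAPK dose. The comparison asks how the compound changes gene expression.

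Median log2 signal lay between 6.46 and 6.50 on the 6 arrays. Arrays of the same group correlated more closely (Pearson's r 0.9976 to 0.9983 across probe sets) than arrays of different groups (0.9942 to 0.9954). The keratins KRT8 and KRT18 were among the brightest genes, at percentiles 99.2 and 99.5 of signal. Other markers of the colorectal epithelium were dim on the same arrays. EPCAM, an adhesion molecule of most epithelial cells, was at percentile 0.87, with 3.35 to 3.42 log2 units on AAPK arrays and 3.42 to 3.52 on DMSO arrays, and its 3 probe sets averaged 3.36 to 3.42. The percentile was 14.5 for CDH1 (E-cadherin), 13.3 for KRT19, 5.2 for VIL1 (villin), 24.4 for CDX2 and 23.4 for CEACAM5. VIM (vimentin), an intermediate filament of mesenchymal cells chosen after its value was seen, was at percentile 99.6. The arrays thus lacked a clear signal for several genes that define the labelled cell type, on the AAPK and on the DMSO side alike, and the name HCT-116 is used as the labels give it. Summed log2 signals of the 4 marker lists (colorectal epithelium, blood cells, fibroblasts, endothelium) overlapped between the groups, at 53.67 to 53.68 on AAPK arrays and 53.39 to 53.78 on DMSO arrays for the 8 epithelial markers. Of the 14 measured markers of the other 3 cell types none passed limma's test at an adjusted p of 0.05, and 2 had an unadjusted p under 0.05. Their signal percentiles ran from 3.77 for PTPRC (CD45) to 80.3 for the globin gene HBB among blood cell markers, from 0.33 for LUM to 47.8 for COL1A1 among fibroblast markers, and from 28.4 for CDH5 to 65.3 for PECAM1 among endothelial markers. Of the 8 epithelial markers 1 passed, KRT8, which rose by 0.17 on the log2 scale in AAPK (limma adjusted p = 0.0402).

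Secreted and membrane proteins enter the ER through the SEC61 channel. There the HSP70-type chaperone BiP, the lectin chaperones calnexin and calreticulin, and the protein disulfide isomerases fold them. Proteins that fail to fold are recognised by mannose-trimming enzymes and lectins, passed back across the membrane at a complex built around the ubiquitin ligase SYVN1 (HRD1) and its adaptor SEL1L, and pulled out by the ATPase VCP (p97) for the proteasome. When misfolded proteins accumulate, the sensors IRE1 (gene ERN1), ATF6 and PERK start the unfolded protein response. IRE1 splices the mRNA of the transcription factor XBP1, ATF6 is cut to release a transcription factor, and PERK raises ATF4 through eIF2.

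Most changes in this pathway were upward and small, and the largest change was a fall. Of the 34 measured genes, 13 rose and 2 fell in AAPK, and 19 did not pass (limma, Benjamini-Hochberg adjusted p at or under 0.05 over all genes). Over all 18132 genes, 15.4% passed, 8.11% upward and 7.26% downward, against 38.2% upward and 5.88% downward among the 34. The median log2 change, AAPK minus DMSO, was 0.07 over the 34 genes and -0.02 over all genes. No rise among the 34 exceeded 0.50 on the log2 scale, a 1.42-fold difference, whereas HERPUD1 was 1.88-fold lower in AAPK. In a culture measured in bulk, fewer cells with a transcript and less of it per cell cannot be told apart. For 18 of the 34 genes, 52.9%, the values of both groups were fully separate, 15 with AAPK above DMSO and 3 with AAPK below it. The same held for 31.9% of all genes, 14.9% upward and 17.1% downward. The 34 genes were not compared with genes of similar signal. How far their higher shares go with signal level was therefore not tested.

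**Figure D1:**
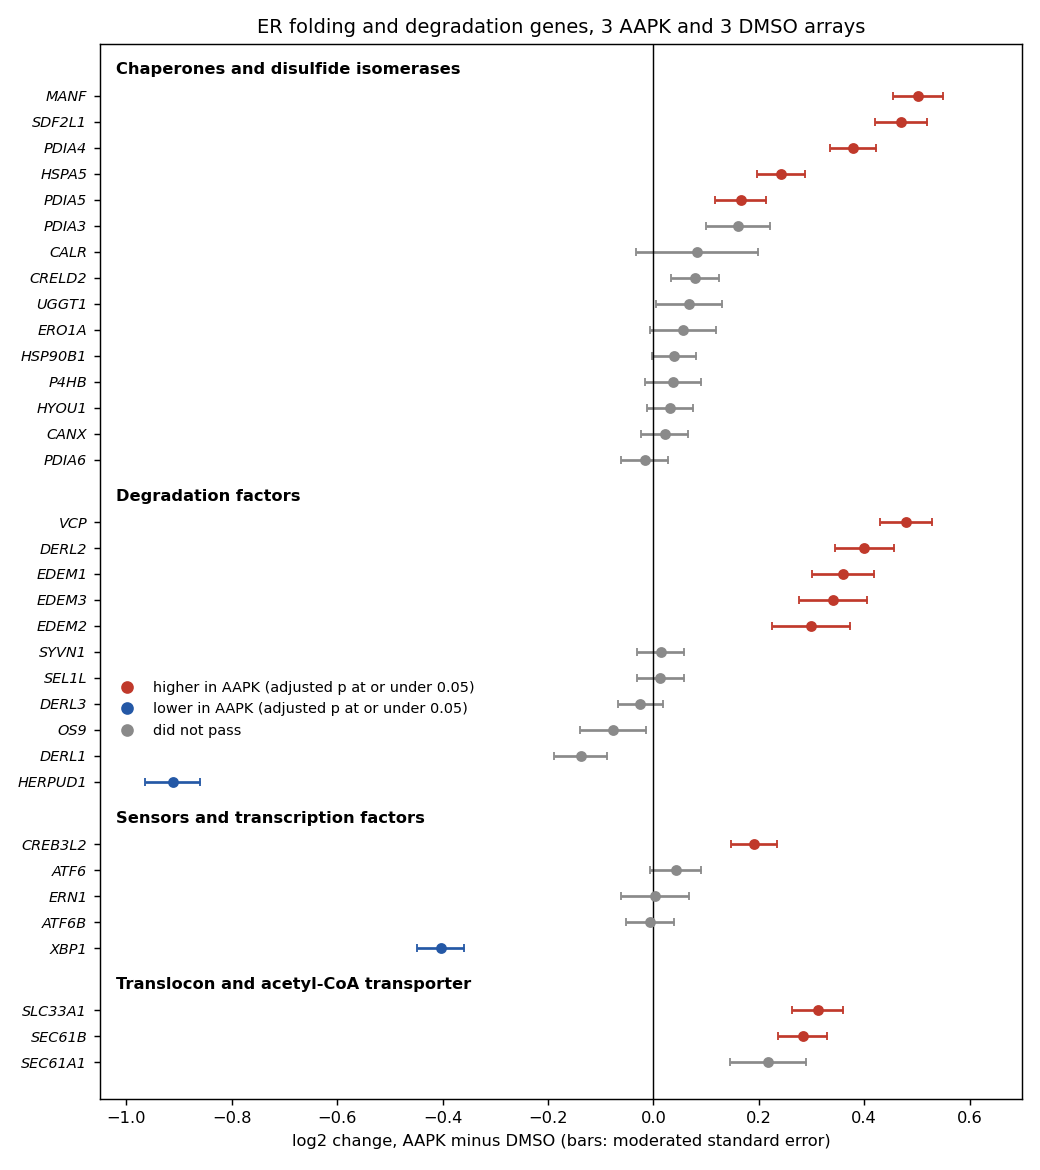
Log2 change, AAPK minus DMSO, of the 34 measured genes (points, one row per gene) with moderated standard errors (bars, 3 arrays per group), in their 4 groups and coloured by limma's call. HERPUD1 at -0.91 stands alone at the left, XBP1 at -0.40 is the other gene that fell, and the 13 genes that rose lie between 0.17 and 0.50.

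Some promoters of these genes hold sequence elements through which the stress response is known to act, and a few are shown because they mark which genes carry which element. The ERSE (CCAAT, 9 bases of any kind, then CCACG) and the ERSE-II (ATTGG, 1 base, then CCACG) are read by ATF6 and XBP1 with the factor NF-Y, the UPRE (TGACGTGG) by XBP1 and ATF6, and the core of the amino acid response element, called CARE here (TTGCATCA), by ATF4 with C/EBP partners. Each motif was searched on both strands of RefSeq windows (GRCh38.p14) from 250 bases before to 50 bases after a start site. Of the 35 listed genes 32 had such a window, 41 windows in all. The stretches below run 5′ to 3′ on the gene's strand, with motif letters in capitals and 12 bases on each side. That of HERPUD1 (chr16:56931954-56932047 on the plus strand) holds a CARE, first in the line, and an ERSE-II. Those of XBP1 (chr22:28800591-28800633 on the minus strand) and HSPA5 (chr9:125241379-125241421 on the minus strand) each hold an ERSE. That of SDF2L1 (chr22:21642102-21642136 on the plus strand) holds an ERSE-II on the opposite strand. CALR (chr19:12938372-12938414 on the plus strand) and CRELD2 (chr22:49918542-49918584 on the plus strand) each hold an ERSE on the opposite strand. HYOU1 (chr11:119057262-119057405 on the minus strand) holds 2 ERSE-II copies on the opposite strand, the first of which overlaps a UPRE.
HERPUD1: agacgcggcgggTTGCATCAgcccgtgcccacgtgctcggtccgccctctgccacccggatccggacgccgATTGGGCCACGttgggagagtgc
XBP1: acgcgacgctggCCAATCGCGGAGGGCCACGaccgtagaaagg
HSPA5: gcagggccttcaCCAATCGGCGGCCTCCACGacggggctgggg
SDF2L1: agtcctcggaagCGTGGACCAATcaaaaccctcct
CALR: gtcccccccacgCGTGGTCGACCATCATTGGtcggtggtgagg
CRELD2: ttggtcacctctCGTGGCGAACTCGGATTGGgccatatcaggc
HYOU1: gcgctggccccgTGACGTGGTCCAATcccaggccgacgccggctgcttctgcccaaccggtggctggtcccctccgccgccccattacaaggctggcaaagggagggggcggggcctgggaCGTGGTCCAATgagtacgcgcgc

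The ERSE was found in 9 of the 41 windows, of 7 genes: CALR, CANX, CRELD2, HSP90B1, HSPA5, PDIA6 and XBP1. It stood in 27 of all 35116 RefSeq windows, 0.0769%. The ERSE-II was in 3 of the 41 windows, those of HERPUD1, HYOU1 and SDF2L1, and in 0.0541% of all windows. The UPRE was found for HYOU1 and VCP, in 2 of the 41 windows (0.729% of all windows). The CARE was found for HERPUD1 alone, in 1 of the 41 (0.866% of all windows). Many of the listed genes are textbook targets of the stress response, so these shares are given as a description. Of the 10 genes with an ERSE or ERSE-II in the window, HSPA5 and SDF2L1 rose, HERPUD1 and XBP1 fell, and 6 did not pass. Of the 13 genes that rose, all of which had a window, 11 had neither element there. A match describes letters only, and no match says nothing about sites outside the window.

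Among the 15 chaperones and disulfide isomerases, 5 rose, 0 fell and 10 did not pass, with a median log2 change of 0.08; 0 genes were lower at an unadjusted p under 0.05 too. MANF, a small secreted and ER-resident factor that binds BiP, rose most. Its log2 signal was 9.76, 9.82 and 9.77 on the AAPK arrays, against 9.26, 9.23 and 9.35 on the DMSO arrays. The groups were well apart, by 0.50 ± 0.05 (SE, n = 3 per group, limma adjusted p = 8.78e-05). SDF2L1, a partner of BiP and its J-domain co-chaperones, had 9.29, 9.42 and 9.31 on AAPK arrays, against 8.91, 8.85 and 8.85 on DMSO arrays. Every AAPK array was above every DMSO array, and the log2 change was 0.47 ± 0.05 (limma adjusted p = 1.66e-04).

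PDIA4 (ERp72), a disulfide isomerase of the ER lumen, had 9.49, 9.48 and 9.44 on AAPK arrays, against 9.11, 9.07 and 9.10 on DMSO arrays. It rose by 0.38 ± 0.04 on the log2 scale (limma adjusted p = 2.59e-04), and its other 2 probe sets were at 0.34 and 0.40. HSPA5, the gene for BiP itself, rose less on its brightest probe set, with 12.56, 12.57 and 12.63 on AAPK arrays, against 12.31, 12.32 and 12.39 on DMSO arrays. The change was 0.24 ± 0.05 (limma adjusted p = 0.00538), a 1.18-fold difference. Of its 5 other probe sets 4 also passed, at 0.33 to 0.43, and the dimmest was at -0.13 and did not. PDIA5, another disulfide isomerase, rose by 0.17 ± 0.05 (limma adjusted p = 0.0449) on its only probe set, with AAPK arrays at 7.33 to 7.35 and DMSO arrays at 7.12 to 7.26. That call was the weakest of the 15 genes that passed. It was lost without AAPK replicate 1, 2 or 3 or DMSO replicate 1 or 3, with changes of 0.14 to 0.17 and limma adjusted p between 0.0960 and 0.1466, and also where the most variable probe set stood for every gene (0.17, limma adjusted p = 0.0900).

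The 10 chaperone and isomerase genes that did not pass had log2 changes from -0.02 to 0.16. They include several of the best known genes of ER folding. HSP90B1 (GRP94), the HSP90 of the ER, was at 0.04 ± 0.04 (limma adjusted p = 0.628), with AAPK arrays at 12.48 to 12.52 and DMSO arrays at 12.44 to 12.47. Those ranges did not overlap, but the change was smaller than its standard error. HYOU1 (GRP170), a large chaperone that releases ADP from BiP, was at 0.03 ± 0.04 (limma adjusted p = 0.717), and its 8 other probe sets ran from -0.05 to 0.08. CRELD2, an ER protein induced by stress, was at 0.08 ± 0.05 (limma adjusted p = 0.320).

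The lectin chaperones CALR and CANX were at 0.08 ± 0.12 and 0.02 ± 0.04, and UGGT1, which sends misfolded glycoproteins back to them, at 0.07 ± 0.06. CALR was the most variable gene of the list on AAPK arrays, with 7.57, 7.72 and 7.17, against 7.50, 7.32 and 7.39 on DMSO arrays, so its interval is the widest of the group. Among the disulfide isomerases PDIA3 (ERp57) was at 0.16 ± 0.06 (limma adjusted p = 0.116), with its other probe set at -0.12. P4HB, the archetypal protein disulfide isomerase, was at 0.04 ± 0.05, and PDIA6 was at -0.02 ± 0.04. ERO1A, the oxidase that recharges these enzymes, was at 0.06 ± 0.06.

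Of the 11 degradation factors, 5 rose, 1 fell and 5 did not pass, with a median log2 change of 0.01. HERPUD1, a membrane protein with a ubiquitin-like domain that organises the SYVN1 complex, had 9.55, 9.70 and 9.68 on AAPK arrays, against 10.52, 10.55 and 10.60 on DMSO arrays. No AAPK array came near a DMSO array. HERPUD1 fell by 0.91 ± 0.05 on the log2 scale (limma adjusted p = 3.03e-06). Its 3 other probe sets also passed, at -0.85, -0.78 and -0.51. Its promoter stretch is the one shown above with both a CARE and an ERSE-II. Whether either element had a part in the fall was not tested.

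VCP, the ATPase that extracts proteins from the membrane, moved the other way. It had 9.91, 9.89 and 9.77 on AAPK arrays, against 9.37, 9.37 and 9.38 on DMSO arrays. The rise was 0.48 ± 0.05 (limma adjusted p = 1.41e-04), and the other 3 probe sets were at 0.43 to 0.55. DERL2, a derlin of the retrotranslocation channel, had 8.95, 9.06 and 8.96 on AAPK arrays, against 8.60, 8.50 and 8.66 on DMSO arrays. It rose by 0.40 ± 0.06 (limma adjusted p = 9.23e-04) on its only probe set. Its paralogs were at -0.14 ± 0.05 for DERL1 (limma adjusted p = 0.0994; other probe sets at -0.02 and 0.18) and -0.03 ± 0.04 for DERL3 (limma adjusted p = 0.777), and neither passed. Whether DERL2 differed from its paralogs was not tested.

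All 3 EDEM genes, whose products trim mannose from misfolded glycoproteins, rose on their brightest probe sets. EDEM1 had 8.69, 8.73 and 8.71 on AAPK arrays, against 8.25, 8.31 and 8.48 on DMSO arrays, a change of 0.36 ± 0.06 (limma adjusted p = 0.00238). The AAPK arrays lay close together and the DMSO arrays spread more. EDEM3 rose by 0.34 ± 0.06 (limma adjusted p = 0.00492) and EDEM2 by 0.30 ± 0.07 (limma adjusted p = 0.0204). The other probe sets gave less. For EDEM1 the 4 others, all dimmer, ran from -0.06 to 0.12 and did not pass, and the mean of its probe sets was at 0.10 (limma adjusted p = 0.127). For EDEM3 they ran from 0.05 to 0.25, and for EDEM2 the single other one was at 0.01. EDEM2 lost its call without AAPK replicate 1 or 2 or DMSO replicate 1, at 0.24, 0.26 and 0.27 (limma adjusted p = 0.0788, 0.0789 and 0.0766), and with the mean of its probe sets, at 0.16 (limma adjusted p = 0.0732).

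The ligase SYVN1, its adaptor SEL1L and the lectin OS9 showed no change that passed. SYVN1 was at 0.01 ± 0.04 (limma adjusted p = 0.887), with AAPK arrays at 8.20 to 8.22 and DMSO arrays at 8.16 to 8.25. SEL1L was at 0.01 ± 0.04 (limma adjusted p = 0.899). OS9, a lectin that hands trimmed glycoproteins to SEL1L, was at -0.08 ± 0.06 (limma adjusted p = 0.501), and its 5 other probe sets all lay between -0.06 and -0.01.

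**Figure D2:**
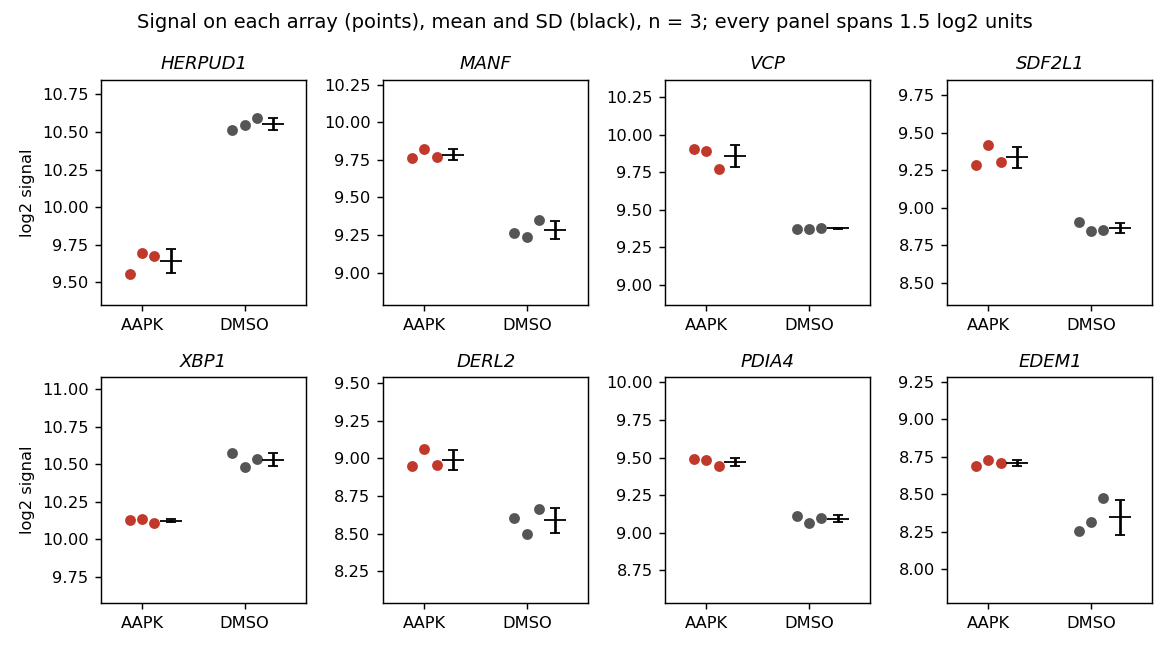
Log2 signal on each array (points) for the 8 genes with the largest change, AAPK left of DMSO, with mean and SD (n = 3) in black; every panel spans 1.5 log2 units. The groups do not overlap in any panel: HERPUD1 and XBP1 are lower on AAPK arrays, and MANF, VCP, SDF2L1, DERL2, PDIA4 and EDEM1 are higher.

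Of the 5 sensors and transcription factors, 1 rose, 1 fell and 3 did not pass. XBP1, the transcription factor downstream of IRE1, had 10.13, 10.14 and 10.11 on AAPK arrays, against 10.57, 10.48 and 10.53 on DMSO arrays. It fell by 0.40 ± 0.04 on the log2 scale (limma adjusted p = 2.11e-04), to levels below every DMSO array. XBP1 had a single probe set, so spliced and unspliced transcripts are not separated here. ERN1, which encodes IRE1, was dim, at percentile 22.8 of signal, with a change of 0.00 ± 0.06 (limma adjusted p = 0.986).

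ATF6 and its relative ATF6B were at 0.04 ± 0.05 and -0.01 ± 0.05 (limma adjusted p = 0.649 and 0.956). For ATF6 the AAPK arrays read 7.42 to 7.51 and the DMSO arrays 7.39 to 7.49. These are transcript levels, whereas ATF6 and IRE1 are switched on at the protein level. CREB3L2, a membrane-bound transcription factor of the same kind as ATF6 that drives secretory pathway genes, had 9.71, 9.77 and 9.77 on AAPK arrays, against 9.56, 9.54 and 9.57 on DMSO arrays. The groups were apart by 0.19 ± 0.04 (limma adjusted p = 0.0134). This held on its brightest probe set only. The 6 others ran from -0.12 to 0.03 and did not pass. They were much dimmer, with mean log2 signals of 3.75 to 6.50 against 9.65 for the brightest. The mean of all its probe sets, in which these dim ones weigh equally, was at 0.00 (limma adjusted p = 0.982). The call was also lost without DMSO replicate 1 (0.19, limma adjusted p = 0.0524) and with quantile normalisation (0.13, limma adjusted p = 0.0787).

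**Figure D3:**
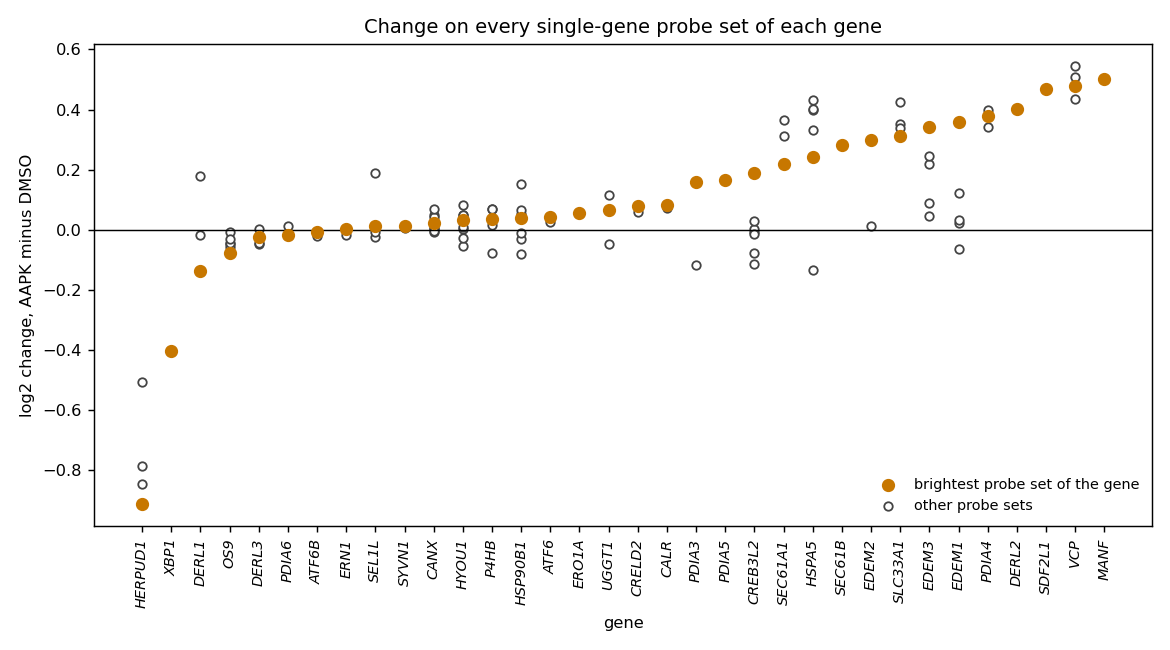
Log2 change, AAPK minus DMSO, on each of the 120 single-gene probe sets of the 34 genes, ordered by the brightest probe set (filled) with the others open. HERPUD1, VCP, PDIA4 and SLC33A1 are among the genes with all their probe sets on one side of 0. For CREB3L2, EDEM1 and EDEM2 the brightest stands above the others.

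Of the measured translocon subunits 1 rose and 1 did not pass. SEC61B, the small beta subunit of the channel, had 10.70, 10.79 and 10.74 on AAPK arrays, against 10.42, 10.50 and 10.46 on DMSO arrays, a rise of 0.28 ± 0.05 (limma adjusted p = 0.00235). SEC61A1, the pore subunit, was at 0.22 ± 0.07 and did not pass (limma adjusted p = 0.0702). Its AAPK replicate 3 read 9.63, just under the highest DMSO array at 9.64. Without that array the change was 0.30 and passed (limma adjusted p = 0.00796). Leaving out each array in turn gave 0.16 to 0.30, and quantile normalisation gave 0.15 (limma adjusted p = 0.170). SEC61A1 passed in 7 of the 16 alternatives and did not pass in the other 9. Its other 2 probe sets, at 0.31 and 0.37, passed where all probe sets were fitted together (limma adjusted p = 0.0271 and 0.0136). SLC33A1, which carries acetyl-CoA into the ER lumen, had 7.52, 7.48 and 7.52 on AAPK arrays, against 7.20, 7.13 and 7.26 on DMSO arrays. It rose by 0.31 ± 0.05 (limma adjusted p = 0.00167), with its 3 other probe sets at 0.34 to 0.43.

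Setting the groups side by side, chaperones and isomerases had 33.3% of measured genes higher and none lower, and the 10 that did not pass had an unadjusted p under 0.05 for 1 gene. Degradation factors had 45.5% higher and 9.09% lower. Sensors and transcription factors had 20.0% higher and 20.0% lower. Each share rests on 5 to 15 genes, and differences between the groups were not tested. The background shares over all genes are the 8.11% higher and 7.26% lower given above, and were not matched for signal.

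Other genes of the ER, of its stress signalling and of early secretory transport were followed in 6 lists. These lists share no gene with the 35 and held 158 genes, of which 154 were measured. Of the 154, 46 rose (29.9%), 15 fell (9.74%) and 93 did not pass, with a median log2 change of 0.07. Of the 15 that fell, 8 were in the stress-signalling list. Over all genes 8.11% rose and 7.26% fell, and among the 34 genes 38.2% rose and 5.88% fell, also with a median of 0.07. The upward tilt was thus not particular to the 34. Like them, the 154 genes were bright, with a median signal percentile of 81.8. Among 34 other chaperones, co-chaperones and thiol enzymes 7 rose and 5 fell (median 0.08). The J-domain co-chaperone DNAJB9 (ERdj4), which acts on IRE1 and BiP, fell by 0.36 (limma adjusted p = 0.00107), while DNAJB11 (ERdj3), a BiP co-chaperone, rose by 0.31 and the prolyl isomerase gene PPIB (cyclophilin B) by 0.35. Among 29 other degradation factors 9 rose and 2 fell (median 0.03). The largest changes were rises of SELENOK (0.44) and SELENOS (0.37), selenoproteins of the ER membrane that bind VCP and derlins, and of YOD1 (0.35), a deubiquitinase that works with VCP.

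Genes for entry into the ER, N-glycosylation and exit from it included none that fell by limma's test, and 1, in the N-glycosylation list, was lower at an unadjusted p under 0.05. Among 22 genes of signal recognition, translocon partners and signal peptidase 8 rose (median 0.11), led by SSR3 (0.45) and SSR1 (0.40), subunits of the translocon-associated protein complex, and SPCS3 (0.36), a signal peptidase subunit. Among 22 N-glycosylation genes 5 rose (median 0.05), with OSTC (0.52) and DAD1 (0.39), both of the oligosaccharyltransferase, and ALG8 (0.34), a glucosyltransferase of the lipid-linked precursor. The COPII coat and early transport list had 13 of 22 genes higher (median 0.23). SEC23A, SEC24A and SAR1B, all parts of the coat that buds vesicles from the ER, rose by 0.60, 0.56 and 0.55 (limma adjusted p = 1.50e-04, 2.60e-04 and 2.63e-04).

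Of the 25 other stress-signalling genes measured, 8 fell, 4 rose and 13 did not pass, with a median of -0.08. DDIT3 (CHOP), TRIB3 and CEBPB, transcription factors and a pseudokinase of the PERK and ATF4 arm, had log2 changes of -2.23, -1.67 and -1.18. HERPUD1 and XBP1 were thus not the only genes linked to ER stress signalling that were lower in AAPK. Whether PERK or ER stress lay behind these falls was not tested. EIF2AK3 (the gene for PERK), ATF4 and ITPR1 were chosen after their values were seen. EIF2AK3 was at 0.13 ± 0.04 (limma adjusted p = 0.0749) and ATF4 at -0.55 ± 0.05 (limma adjusted p = 3.64e-05). ITPR1, the largest of the 4 rises, was at 0.62 ± 0.05 (limma adjusted p = 5.02e-05).

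**Figure D4:**
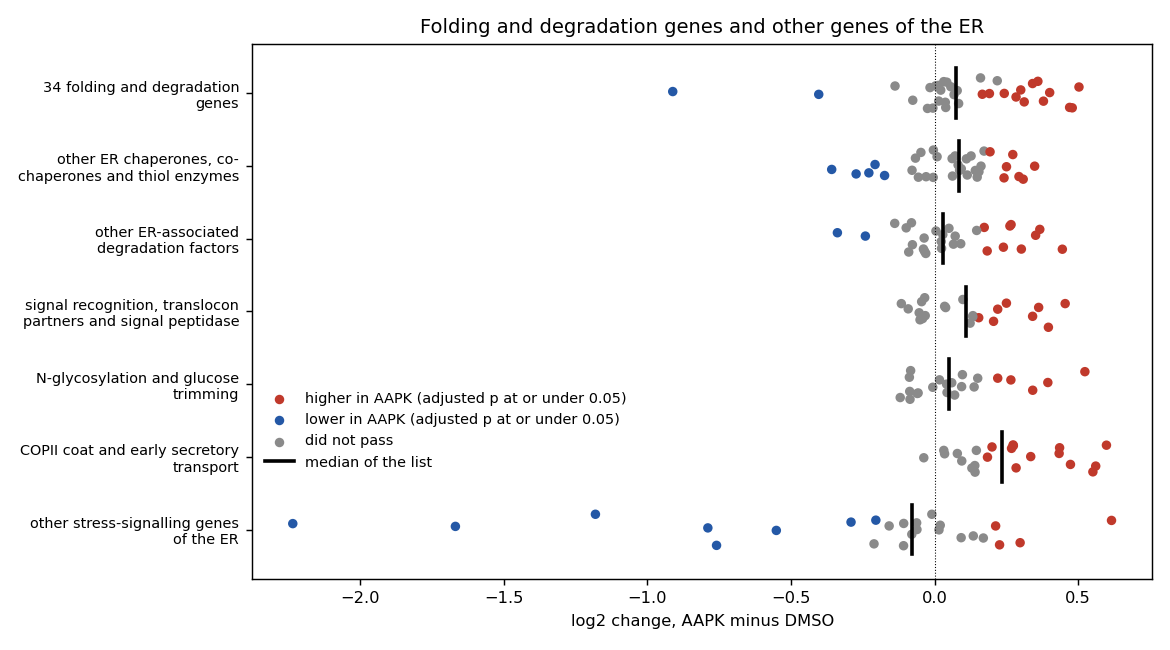
Log2 change, AAPK minus DMSO, of the 34 folding and degradation genes (top row) and of the 154 genes in 6 other ER lists (points, jittered vertically and coloured by limma's call; black line, median of the list). The COPII row has the highest median, 0.23, and the stress-signalling row at the bottom reaches -2.23.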

How the data were processed

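The deposited table holds the authors' log2 signal values for 49395 probe sets on 6 arrays. The log2 scale was read from the values, since it is not stated. The array medians were nearly equal, so the values were taken as normalised between arrays by the authors, and changes as relative to the bulk of genes; the deposited file does not state this. How background was corrected, how arrays were normalised and how probes were summarised is not stated by the labels. Gene names came from the platform annotation, in which 44988 probe sets named 1 symbol.

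Groups and replicate numbers came from the sample titles. The labels do not say that replicates were separate cultures, so p-values cover the spread between these samples alone, and that spread may be technical. Precision is limited by 3 arrays per group. AAPK was compared with DMSO by limma 3.58.1 in R 4.3.3 (lmFit, eBayes, group only, two-sided), on the brightest probe set per gene, with Benjamini-Hochberg adjustment over 18132 genes. Tables were made with pandas 2.3.3 in Python 3.11.15. Of the 34 genes, 13 had a brightest probe set with the suffix s or x, which marks probes that may match other transcripts.

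Members, lists and tests were chosen with earlier results of these data known. All genes that passed are named, the 8 with the largest change are given on every array, and up to 3 genes are named per further list. The fit was run on simulated data with independent noise and far fewer changed genes than passed here. That run checks the code and not the calls made here. The 16 alternatives covered normalisation, dim genes, choice of probe set, variance model, array weights, a replicate block and leaving out each array.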

Additional observations from a re-analysis of the deposited data

How the results depend on the processing

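Of the 15 genes that passed, 11 kept their call in every alternative they could be run in; the exceptions were PDIA5, EDEM1, EDEM2 and CREB3L2. Of the 19 that did not pass, PDIA3, DERL1 and SEC61A1 passed in some, and no call changed sign. The count of genes higher was 13 and ran from 10 to 13 when single arrays were left out, with 2 lower each time. It was 15 with an intensity trend in the variance model and 14 with either filter on dim genes. Quantile normalisation gave 12 and the mean of probe sets 11. The count lower was 3 with quantile normalisation, with genes under the median left out and with array weights. For the degradation factors, 2 rather than 1 were lower with quantile normalisation, with genes under the median left out and with array weights, where DERL1 was called. With probe sets averaged per gene 3 rather than 5 were higher. No sensor was called higher with quantile normalisation or the mean of probe sets, and leaving out single arrays gave 0 to 1. The median log2 change of the 34 genes was 0.093 with median centring, 0.043 with the mean of probe sets and 0.156 for the most variable probe set of each gene, against 0.073; leaving out arrays gave 0.06 to 0.09. The causes were not tested. Same-numbered samples did not deviate together (r = -0.02, -0.23 and -0.05), and differently numbered ones had r from -0.13 to 0.17. No shared replicate effect was thus visible. Such values from 3 arrays per group cannot show whether samples were run as pairs. With the replicate number as a block, 12 genes were higher and 2 lower, 2099 genes passed against 2788 over the whole table, and PDIA5 did not pass (limma adjusted p = 0.0865). ERN1 was left out by both filters on dim genes and EDEM2 by that at the median.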
